A study of Homo sapiens with 18 samples.

Results

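Untreated ARPE-19 cells that carried an edit in NFE2L2, the gene for the transcription factor NRF2, were compared with untreated control ARPE-19 cells. The comparison took in the 3 untreated samples of the edited line, named NRF2 ΔC here, and the 3 untreated samples of the control line, which are 6 of the 18 samples of the series. They were chosen by their labels and not by any measured value. The other 12 samples are the same 2 lines treated with NACET, the ethyl ester of N-acetylcysteine, or with H2O2. They served to see whether a difference found without treatment was also present in samples that the main comparison had not used. They also entered 1 alternative fit of all 18 samples. ARPE-19 is a human cell line of the retinal pigment epithelium that arose spontaneously in culture. Both lines had been transduced with lentiviral particles that express the endonuclease Cas9. In the NRF2 ΔC line the particle also carried a guide RNA against exon 5 of NFE2L2, and in the control line it carried none. All NRF2 ΔC samples come from 1 clone, named C1 and selected after puromycin, so that the edit and any other feature of this clone cannot be told apart. The control line is not described as a clone. Untreated cells received Milli-Q water, the vehicle. The sample labels give 22 h of culture and 2 h of treatment in 1% serum, whereas the series description gives 40 h of culture in 10% serum and 8 h of treatment, and names 1% serum as well.

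NRF2 is held at a low level in resting cells by KEAP1, which binds it and brings it to a cullin 3 ubiquitin ligase for degradation. When KEAP1 is modified by oxidants or electrophiles, NRF2 accumulates, enters the nucleus, pairs with a small MAF protein (MAFF, MAFG or MAFK) and binds antioxidant response elements. Its targets take up cystine, build glutathione, reduce quinones, conjugate and export foreign compounds, supply NADPH and store iron. In the retinal pigment epithelium, which lives under light, high oxygen and a daily load of shed photoreceptor membrane, this system is a main defence against oxidants. The comparison asks what the loss of the carboxyl end of NRF2 goes along with when no stress is applied.

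The edit lies in the last exon of NFE2L2, within its coding sequence, and the series description places the new stop codons of the edited alleles at positions 503 and 505 of the protein. The unedited stretch around these codons is shown to place the edit in the gene. It was read from the hg19 genome at chr2:178095804-178095866, on the minus strand, in exon 5 of 5, and covers codons 489 to 509 of 605. Codons 503 to 505 are in capitals.
NFE2L2 codons 489 to 509: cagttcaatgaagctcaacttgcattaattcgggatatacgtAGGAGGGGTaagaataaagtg
The stretch lies in the region that encodes the DNA-binding basic leucine zipper of NRF2, and the codons after it encode the rest of the zipper and the carboxyl-terminal Neh3 domain. The deposited counts sum the reads of the whole gene and hold no sequence of the edited alleles.

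The 6 libraries held from 21028145 to 25951154 reads on genes, from 72.97 to 73.83% of all their reads. Replicates of a line differed beyond what counting error allows, so no library was counted as a copy of another. The labels do not say whether replicates were separate cultures, and p-values then measure the spread between these samples only. Replicate 1 of the NRF2 ΔC line stood apart from replicates 2 and 3, with a Pearson correlation of log2(CPM + 1) across 13710 genes, which are not independent, of 0.986 and 0.983 to them against 0.995 between them. In the control line replicates 1 and 3 were the least alike (0.987), with replicate 2 close to both (0.993 and 0.992). The summed level of 47 mitosis and spindle genes was 2367 CPM (reads scaled to the library size after TMM normalization for library composition) in replicate 1 of the control cells against 4108 and 3768 CPM in replicates 2 and 3. In NRF2 ΔC cells it was 3356 CPM against 4208 and 5480 CPM. The sum of 36 collagen chains ran the other way, from 6995 CPM in control replicate 1 to 5372 and 4187 CPM, and from 6065 to 4019 and 3522 CPM in NRF2 ΔC cells. The part of this difference among replicates in the results was not tested. The number of genes called is given below with and without these 2 libraries.

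As a check of the cell type, 46 genes of pigment epithelium identity and the visual cycle were read first. The transcription factors OTX2, MITF and PAX6 were present in both lines, and none was a DEG. OTX2 was at 144, 146 and 159 CPM in control cells and 172, 140.1 and 176 CPM in NRF2 ΔC cells, MITF at 184, 161 and 143 CPM in control cells and 152, 129 and 110.5 CPM in NRF2 ΔC cells and PAX6 at 153, 145 and 137 CPM in control cells and 131, 125 and 109.6 CPM in NRF2 ΔC cells. The epithelial keratins KRT8 and KRT18 and the membrane linker EZR were present as well. Several other genes of the list, among them markers of a mature pigment epithelium, were absent or nearly so in every library. TTR, CRX and CLDN19 had no read, RPE65, the retinoid isomerase of the visual cycle, had a single read, and RLBP1, BEST1, TYR and KCNJ13 stayed below 1 CPM in all 6 libraries. In all, 16 of the 46 genes were below 1 CPM in each library. Of 30 tested, 1 (3.33%) was a DEG, near the 3.83% of all genes tested. It was GAS6, a ligand of the receptor MERTK that binds shed photoreceptor membrane for uptake, which rose from 33.0, 27.1 and 34.4 to 58.2, 53.9 and 52.0 CPM (log2 fold change 0.80, SE 0.12, adjusted p = 0.00831, from edgeR's quasi-likelihood fit, Benjamini-Hochberg adjusted across the 13697 genes tested, as for every adjusted p-value below). Most markers of endothelium, blood and fibroblasts were at or near 0, with 16 of 19 below 1 CPM in every library, and of the 3 tested none was called by edgeR, with 0 also by DESeq2 and 0 at an unadjusted p under 0.05. The sum of the 19 ran from 397 to 561 CPM in control and from 298 to 465 CPM in NRF2 ΔC cells, and nearly all of it was PDGFRB and CD68, while PECAM1, CDH5, PTPRC and DCN had no more than 0.143 CPM in any library. KDR, a VEGF receptor of endothelium that was too low to be tested, had 49 reads over the control and 0 over the NRF2 ΔC libraries.

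Of 13697 genes tested, 525 (3.83%) were DEGs, which here means an adjusted p below 0.05 together with a log2 fold change of 0.6 or more in either direction. In NRF2 ΔC cells 428 (3.12%) were lower and 97 (0.708%) were higher. The median log2 fold change of all genes tested was 0.01. In each of the 525 genes the 3 values of one line lay beyond the 3 of the other, which held for 18.6% of all genes tested. The falls were larger in size than the rises. Their median log2 fold change was -1.68, 338 were at least 1 in size, 174 (40.7%) at least 2 and 62 (14.5%) at least 4. The rises had a median of 1.16, and 61 were at least 1, 21 (21.6%) at least 2 and 5 (5.15%) at least 4. By level, falls were most frequent among genes at 1 to 10 CPM in control cells, where 206 of 3102 (6.64%) fell, and least frequent above 100 CPM, where 38 of 2296 (1.66%) fell. The number of DEGs depended on single libraries. It was 260 without NRF2 ΔC replicate 2, 292 without control replicate 2 and 898 without NRF2 ΔC replicate 1, and 874 without replicate 1 of both lines, an alternative chosen after the data were seen that kept 491 of the 525.

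The edited gene itself was read at a similar level in both lines. NFE2L2 was at 119.8, 125 and 124 CPM in control cells and 124, 123 and 125 CPM in NRF2 ΔC cells (log2 fold change 0.02, SE 0.09, adjusted p = 0.963). The libraries of the 2 lines interleave, and total reads on this gene do not tell the edited from the unedited transcript. Of its regulators and partners 1 of 13, NFE2L2 included, was called by the same test (7.69%, beside 3.83% of all genes tested). KEAP1 was at 77.9, 73.3 and 80.7 CPM in control cells and 65.2, 88.6 and 79.1 CPM in NRF2 ΔC cells (0.01, adjusted p = 0.992). The small MAF partners MAFF, MAFG and MAFK had log2 fold changes of 0.00, 0.02 and 0.08, and CUL3, the ligase scaffold, had 0.14. BACH1, which competes with NRF2 for the same elements, was at -0.01, the related factors NFE2L1 and NFE2L3 at -0.05 and 0.21, CHD6 at -0.21, the coactivator CREBBP at 0.02 and BTRC, the substrate receptor of a KEAP1-independent ligase, at 0.03. The exception was BACH2, a repressor of the BACH family best known from lymphocytes, which fell from 3.55, 2.81 and 2.65 to 1.17, 1.22 and 0.855 CPM (log2 fold change -1.47, SE 0.25, adjusted p = 0.0123). BACH2 (-1.57 to -1.31) was no longer a DEG without control replicate 1 or 2 or NRF2 ΔC replicate 2 or 3.

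The RT-qPCR targets are NRF2 targets whose transcripts were also quantified by RT-qPCR in ARPE-19 cells treated with NACET. All 8 were lower in NRF2 ΔC cells, with a median log2 fold change of -0.55. NQO1, MGST1 and SLC7A11 were DEGs, 3 of 8 (37.5%, beside 3.83% of all genes tested). The list was not made independently of these cells. NQO1, the quinone reductase, was at 167, 332 and 177 CPM in control cells and 15.6, 11.1 and 14.8 CPM in NRF2 ΔC cells (log2 fold change -4.03, SE 0.30, adjusted p = 0.000192). The lines were far apart, and control replicate 2 was well above the other controls. NQO1 lies at chr16:69740899-69760571 in hg19. MGST1, a microsomal glutathione transferase, was at 164, 210.2 and 202 CPM in control cells and 68.2, 82.5 and 103 CPM in NRF2 ΔC cells (log2 fold change -1.18, SE 0.17, adjusted p = 0.00535). SLC7A11, the cystine carrier of system xc-, was at 24.3, 36.1 and 30.4 CPM in control cells and 11.4, 18.2 and 14.0 CPM in NRF2 ΔC cells (log2 fold change -1.05, SE 0.20, adjusted p = 0.0231), and the uncharacterized gene LOC641364, which overlaps it, fell as well (-2.37), while reads were counted without regard to strand and cannot be assigned between the pair. Neither group overlapped the other in these 3 genes. GCLM, the modifier subunit of glutamate-cysteine ligase, was at 14.8, 23.8 and 18.7 CPM in control cells and 11.0, 10.4 and 11.8 CPM in NRF2 ΔC cells, without overlap, but missed the limit (log2 fold change -0.79, adjusted p = 0.0507). In 8 of 14 alternatives it was called. GCLC, the catalytic subunit of the same enzyme, had -0.25, HMOX1, which breaks down heme, -0.32, GSR, which reduces glutathione, -0.14, and TXN, thioredoxin, -0.04, and none of these 4 passed the test. The lines did not overlap in GCLC but overlapped in the other 3, with HMOX1 at 45.6, 60.0 and 65.2 CPM in control cells and 39.0, 53.1 and 44.5 CPM in NRF2 ΔC cells and TXN at 83.9, 118 and 119.8 CPM in control cells and 88.9, 99.9 and 123 CPM in NRF2 ΔC cells. SLC7A11 (-1.04 to -0.91) was no longer a DEG without control replicate 2 or 3 or NRF2 ΔC replicate 3. MGST1 (-1.16) was no longer a DEG without NRF2 ΔC replicate 2.

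Beyond these, lists of genes in the roles of NRF2 targets were read, and not every member is an established target. Among 29 tested genes of glutathione synthesis, thioredoxins and antioxidant enzymes 3 (10.3%) fell and none rose, beside 3.12% of all genes tested that fell. The median was -0.12, and 22 of 29 were lower. TXNRD1, thioredoxin reductase, fell from 906, 1086 and 992 to 554, 595 and 631 CPM (log2 fold change -0.75, SE 0.12, adjusted p = 0.0105). SOD3, the secreted superoxide dismutase, fell from 19.9, 16.4 and 20.7 to 8.77, 9.73 and 6.39 CPM (log2 fold change -1.19, SE 0.18, adjusted p = 0.00778). The third was SLC7A11. Catalase (CAT, -0.21), SOD1 (-0.12), GPX4 (0.03), GSS (-0.05), PRDX1 (-0.44) and SRXN1 (-0.02), the reductase of oxidized peroxiredoxins, did not pass. TXNRD1 (-0.75 to -0.68) was no longer a DEG without control replicate 2 or NRF2 ΔC replicate 2.

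Enzymes that supply NADPH showed 3 falls of 18 tested (16.7%, beside 3.12% of all genes tested), with a median of -0.08. TKT, the transketolase of the pentose phosphate pathway, fell from 1089, 1204 and 1067 to 393, 446 and 369.9 CPM (log2 fold change -1.47, SE 0.12, adjusted p = 0.000405). ME1, the cytosolic malic enzyme, fell from 29.6, 38.9 and 32.6 to 20.8, 16.6 and 17.6 CPM (log2 fold change -0.88, SE 0.15, adjusted p = 0.0122). Other pentose phosphate enzymes did not pass the test, with -0.12 for PGD, -0.24 for TALDO1 and 0.16 for RPIA. In iron handling 2 of 15 (13.3%) fell, both subunits of ferritin. FTL, the light chain, went from 1327, 1447 and 1293 to 629, 659 and 732 CPM (log2 fold change -1.01, SE 0.12, adjusted p = 0.00215), and FTH1, the heavy chain, from 1207, 1239.9 and 1484 to 647, 742 and 677 CPM (log2 fold change -0.93, SE 0.13, adjusted p = 0.00508). Both have many processed pseudogenes, and reads that mapped to several places were left out by the counting. TFRC, the transferrin receptor, was not called (-0.68, adjusted p = 0.0965), and HMOX2, BLVRA and BLVRB, which act around HMOX1, had 0.27, 0.05 and -0.25. ME1 (-0.84 to -0.76) was no longer a DEG without control replicate 2 or NRF2 ΔC replicate 2 or 3.

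In quinone and carbonyl reduction 3 of 19 (15.8%) fell, NQO1, AKR1C3 and CBR1. AKR1C3, an aldo-keto reductase of steroids and prostaglandins with near-identical relatives, fell from 12.0, 11.0 and 7.85 to 5.80, 2.82 and 3.38 CPM (log2 fold change -1.37, SE 0.29, adjusted p = 0.0323), and CBR1, a carbonyl reductase, from 59.3, 72.1 and 65.5 to 39.5, 39.7 and 47.3 CPM (log2 fold change -0.64, SE 0.12, adjusted p = 0.0237). Of the 29 genes of this list 10 were below 1 CPM in every library. The glutathione transferases and glucuronidation enzymes had 3 falls of 17 (17.6%). Besides MGST1 they were GSTM4 (from 14.1, 10.7 and 12.1 to 5.41, 4.20 and 4.19 CPM, log2 fold change -1.43, SE 0.18, adjusted p = 0.00283) and GSTM2 (from 14.4, 11.3 and 15.9 to 8.62, 5.42 and 6.93 CPM, log2 fold change -0.99, SE 0.21, adjusted p = 0.033), which lie 2526 bases apart on chromosome 1 and resemble each other in sequence. ABCG2, an exporter of drugs and urate, fell from 1.18, 2.24 and 1.26 to 0.292, 0.381 and 0.585 CPM (log2 fold change -1.87, SE 0.39, adjusted p = 0.0332) and was the only 1 of 7 exporters to do so, with ABCC1 at -0.14 and ABCC3 at -0.57. Of the 15 autophagy and feedback genes TRIM16L (from 12.7, 21.5 and 12.0 to 3.80, 4.46 and 4.23 CPM, log2 fold change -1.88, SE 0.24, adjusted p = 0.00345) and TRIM16 (from 20.9, 28.1 and 15.9 to 11.6, 9.65 and 7.34 CPM, log2 fold change -1.18, SE 0.24, adjusted p = 0.0284) fell, a near-identical pair in which reads may be split, whereas SQSTM1, the autophagy receptor p62, was not called (-0.43, adjusted p = 0.155). The share that fell was 14.3% of the exporters and 13.3% of the autophagy and feedback genes, beside 3.12% of all genes tested. No gene of the 7 role lists rose by edgeR or DESeq2. AKR1C3 (-1.32 to -1.17) and TRIM16 (-1.21 to -0.95) were no longer DEGs without control replicate 1 or 2 or NRF2 ΔC replicate 2 or 3. CBR1 (-0.63 to -0.56) was no longer a DEG without control replicate 2 or 3 or NRF2 ΔC replicate 1 or 2. GSTM2 (-1.12 to -0.83) was no longer a DEG without control replicate 1, 2 or 3 or NRF2 ΔC replicate 2 or 3. ABCG2 (-2.16 to -1.52) was no longer a DEG without control replicate 2 or NRF2 ΔC replicate 2 or 3.

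**Figure D1:**
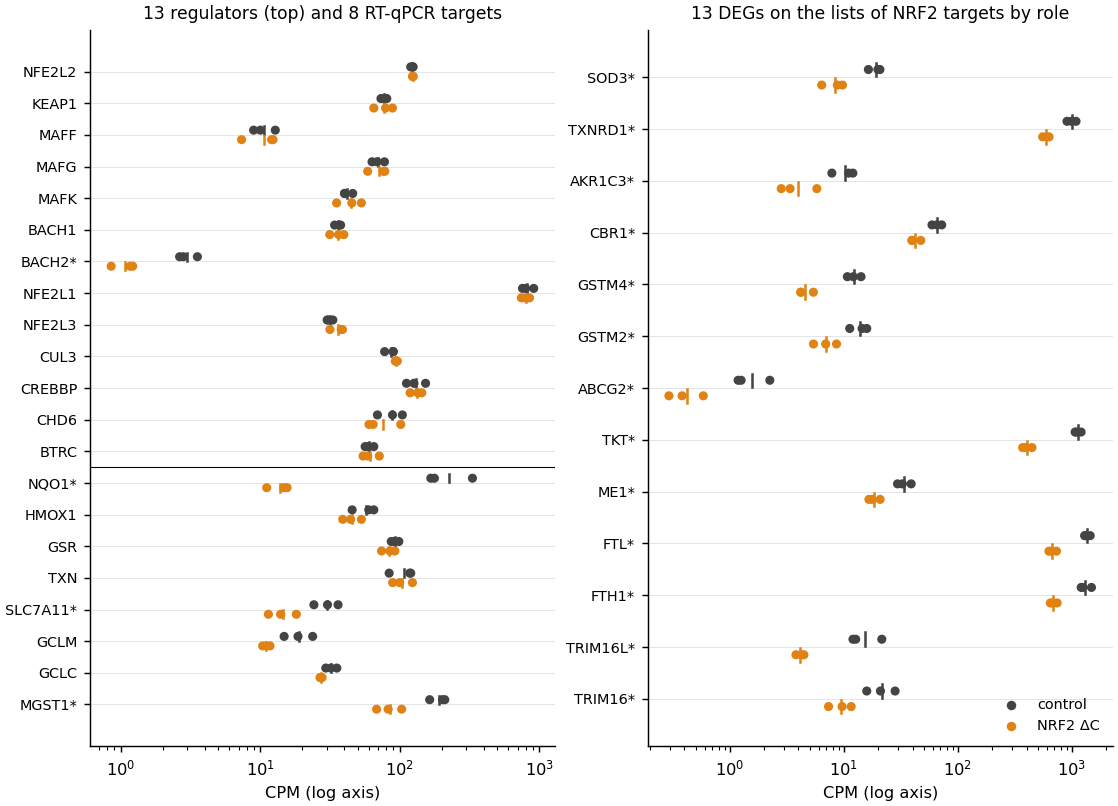
Points are the CPM of single samples on a log axis, black for the 3 control and orange for the 3 NRF2 ΔC samples, with a short bar at each mean and an asterisk at each DEG. NFE2L2 and KEAP1 overlap between the lines, NQO1 separates from 167 CPM and above to 15.6 CPM and below, and the 13 further DEGs shown from the role lists all lie lower in NRF2 ΔC cells.

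NRF2 with a small MAF protein binds the antioxidant response element, so promoters were searched for its core, TGACNNNGC, on either strand, from 250 bases before to 50 after the RefSeq start of each gene. A promoter sequence was at hand for 10748 of the 13697 genes, and 1634 (15.2%) held the core. Among the genes that fell 51 of 326 (15.6%) held it, and among those that rose 8 of 71 (11.3%). Of the 8 RT-qPCR targets 5 had a sequence and 1, GCLM, held it. The 250 bases before the start of GCLM are shown, with the core in capitals. Those of TXNRD1 and ME1 are added, which were picked after their values were seen and are, with CBR1, the DEGs of the role lists that held the core. Coordinates are of build GRCh38.p14.
GCLM, chr1:93909431-93909680, minus strand, core 34 bases before the start: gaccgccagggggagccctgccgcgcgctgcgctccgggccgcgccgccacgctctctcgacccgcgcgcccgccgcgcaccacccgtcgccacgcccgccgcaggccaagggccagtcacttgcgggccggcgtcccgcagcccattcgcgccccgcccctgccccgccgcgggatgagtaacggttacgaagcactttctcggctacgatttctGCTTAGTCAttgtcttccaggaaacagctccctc
TXNRD1, chr12:104215529-104215778, plus strand, core 99 bases before the start: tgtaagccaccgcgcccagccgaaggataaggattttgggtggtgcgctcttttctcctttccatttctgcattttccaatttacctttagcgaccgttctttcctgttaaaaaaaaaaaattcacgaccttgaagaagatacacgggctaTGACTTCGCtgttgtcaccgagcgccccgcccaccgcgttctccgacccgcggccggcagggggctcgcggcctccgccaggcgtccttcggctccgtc
ME1, chr6:83431052-83431301, minus strand, core 137 bases before the start: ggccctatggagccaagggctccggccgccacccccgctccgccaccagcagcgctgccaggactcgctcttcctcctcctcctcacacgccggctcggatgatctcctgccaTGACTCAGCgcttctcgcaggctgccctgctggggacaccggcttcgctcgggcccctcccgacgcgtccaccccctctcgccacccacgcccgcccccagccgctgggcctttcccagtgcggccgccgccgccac
The core lies on the opposite strand of the gene in GCLM and on the same strand in TXNRD1 and ME1. The match is a description of letters in a short window, and elements farther away were not searched.

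The largest changes of the comparison were genes that went to 0 or nearly to 0 reads in NRF2 ΔC cells. Of the 428 genes that fell 12 had no read in any of the 3 NRF2 ΔC libraries and a further 20 had 1 to 3 reads over the 3. AJAP1, a membrane protein of adherens junctions at chr1:4714669-4852594 in hg19, had 522 reads over the control and 0 over the NRF2 ΔC libraries, at 8.41, 7.44 and 7.80 CPM in control cells and 0, 0 and 0 CPM in NRF2 ΔC cells, which is at least 182-fold lower when 3 reads over the group are taken as the floor (adjusted p = 0.000108). ZNF501 and ZNF594, zinc finger proteins, had 189 and 161 reads in control and 0 in NRF2 ΔC cells, at least 65.7-fold and 56.0-fold lower, and LHFPL4, a membrane protein of inhibitory synapses, had 156 reads over the control and 0 over the NRF2 ΔC libraries, at least 54.3-fold lower. In these 4 genes every control library was well above every NRF2 ΔC library.

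CTSF, a lysosomal cysteine protease, had 692 reads over the control and 1 over the NRF2 ΔC libraries, a ratio of 722 (95% interval 129 to 28558) that covers counting error only. CSRP1, a LIM protein of actin filaments, had 488 reads over the control and 1 over the NRF2 ΔC libraries, and its control values ran from 4.40 to 9.64 CPM. BEX2, an X-linked gene of neural tissue, had 597 reads over the control and 3 over the NRF2 ΔC libraries, and COCH, a secreted protein of the inner ear matrix, 219 reads over the control and 1 over the NRF2 ΔC libraries. PTPLAD2 (HACD4), a dehydratase of fatty acid elongation, had 233 reads over the control and 1 over the NRF2 ΔC libraries, MLPH, which links melanosomes to myosin, 187 reads over the control and 1 over the NRF2 ΔC libraries, A2LD1 (GGACT), a gamma-glutamylamine cyclotransferase, 194 reads over the control and 2 over the NRF2 ΔC libraries, and SULT1A1, a phenol sulfotransferase with close relatives in sequence, 178 reads over the control and 2 over the NRF2 ΔC libraries. TP53I11, a p53-inducible gene, had 167 reads over the control and 1 over the NRF2 ΔC libraries, with control values from 1.03 to 4.38 CPM. Another pair of the 15 largest falls kept a few reads. BHMT2, a methyltransferase of homocysteine, fell from 12.6, 10.3 and 10.4 to 0.146, 0.0763 and 0 CPM (log2 fold change -7.15, SE 0.40, adjusted p = 7.76e-05), and DMGDH, the gene that overlaps it on chromosome 5, fell as well (-5.91), while FAM109B (PHETA2), an endosomal protein, fell from 7.84, 8.49 and 9.64 to 0, 0.114 and 0.135 CPM (log2 fold change -6.55, SE 0.40, adjusted p = 8.73e-05). TP53I11 was no longer a DEG without NRF2 ΔC replicate 2.

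Smaller falls on the log2 scale concerned genes that control cells expressed at high level. They were chosen after their values were seen, among DEGs with a mean over 30 CPM. ALPK2, an alpha kinase, fell from 178, 159 and 128 to 5.26, 3.13 and 2.79 CPM (log2 fold change -5.39, SE 0.26, adjusted p = 3.95e-05). IVL, involucrin, a precursor of the cornified envelope of keratinocytes, fell from 63.7, 77.7 and 62.2 to 2.05, 4.96 and 5.09 CPM (log2 fold change -4.06, SE 0.30, adjusted p = 0.000188). MCAM, an adhesion molecule of the immunoglobulin family, fell from 116, 125 and 87.1 to 20.6, 12.9 and 11.0 CPM (log2 fold change -2.89, SE 0.25, adjusted p = 0.000427), and RGS11, a regulator of G protein signalling, from 58.4, 45.4 and 62.3 to 9.79, 9.76 and 7.34 CPM (log2 fold change -2.63, SE 0.17, adjusted p = 0.000111). Among the members of fixed lists, PDE6B, a subunit of the rod photoreceptor phosphodiesterase, fell from 6.74, 6.73 and 6.64 to 0.195, 0.0381 and 0.09 CPM (log2 fold change -5.96, SE 0.35, adjusted p = 8e-05), while 20 of the 27 genes of other retinal cells, GNAT1 and AQP4 among them, were below 1 CPM in every library. In none of these 5 genes did the lines overlap.

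The rises were fewer. CNTN1, contactin 1, an adhesion molecule of neurites at chr12:41086241-41466217 in hg19, rose from 0.263, 0.143 and 0.269 to 12.1, 7.48 and 10.3 CPM (log2 fold change 5.42, SE 0.32, adjusted p = 8e-05). CLDN11, a claudin that forms tight junction strands in myelin and testis, rose from 3.85, 2.96 and 5.02 to 35.8, 72.1 and 49.7 CPM (log2 fold change 3.73, SE 0.30, adjusted p = 0.000279). TRO, trophinin, an adhesion protein of trophoblast cells, rose from 1.75, 0.763 and 0.404 to 14.0, 11.4 and 12.3 CPM (log2 fold change 3.67, SE 0.39, adjusted p = 0.00127), and CKB, the brain type creatine kinase, from 1.36, 1.72 and 1.88 to 13.1, 24.7 and 23.6 CPM (log2 fold change 3.63, SE 0.28, adjusted p = 0.000261). LAT, an adaptor of T cell receptor signalling, rose from 4.60, 4.10 and 6.19 to 19.6, 28.9 and 29.9 CPM (log2 fold change 2.40, SE 0.22, adjusted p = 0.000629). In all 5 the lowest NRF2 ΔC library was at least 3 times the highest control library. Smaller or less abundant were RTN1, a reticulon of the endoplasmic reticulum (2.93), the sialyltransferase ST6GAL2 (2.53), GALNT6, which starts O-glycans (2.49), TMEM200A (2.37), the transcription factor EBF4 (2.22), the histamine receptor HRH1 (2.18), LOC375010 (2.08) and the ephrin receptor EPHB1 (1.89). RPSAP52, a pseudogene transcript, rose from 0.744, 1.00 and 2.42 to 5.55, 7.90 and 14.6 CPM (2.75), and it overlaps HMGA2, an architectural chromatin protein, which rose as well (1.43), so that reads of the pair cannot be told apart without strand. An abundant gene that rose, chosen after its values were seen, was IGFN1, a gene of muscle with immunoglobulin-like and fibronectin domains (from 172, 133 and 134 to 384, 479 and 367 CPM, log2 fold change 1.49, SE 0.15, adjusted p = 0.00119). RPSAP52 (2.56 to 2.86), HRH1 (2.19 to 2.32) and EPHB1 (1.71 to 1.85) were no longer DEGs without control replicate 2 or NRF2 ΔC replicate 2. EBF4 (2.00) was no longer a DEG without NRF2 ΔC replicate 2.

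Lists of 42 gene groups, 1392 genes with 1041 tested, held 77 DEGs, 17 that rose and 60 that fell, and 12 lists held none. Among 21 tested collagen chains 5 (23.8%) fell and none rose, with a median of -0.32, beside 3.83% called of all genes tested. COL4A3 and COL4A4, which lie head to head on chromosome 2 and form the basement membrane network with COL4A5, fell from 38.8, 27.4 and 26.0 to 13.7, 7.63 and 11.8 CPM (log2 fold change -1.48, SE 0.24, adjusted p = 0.0102) and from 114, 67.1 and 54.8 to 33.9, 21.1 and 25.0 CPM (log2 fold change -1.56, SE 0.28, adjusted p = 0.0171). COL4A6, another basement membrane chain, fell from 4.38, 3.15 and 2.24 to 0.779, 0.572 and 0.585 CPM (-2.34), and the chains COL16A1 and COL15A1, which link fibrils and basement membranes, fell from 5.87, 5.44 and 4.71 to 0.633, 1.11 and 0.45 CPM (-2.84) and from 2.01, 1.81 and 0.807 to 0.438, 0.153 and 0.225 CPM (-2.52). The matrix and protease genes had 2 rises and 5 falls of 37 (18.9% called). PLAU, urokinase, fell from 12.1, 12.8 and 8.34 to 0.974, 0.954 and 0.765 CPM (log2 fold change -3.62, SE 0.24, adjusted p = 0.000111), and LOXL4, a lysyl oxidase of collagen crosslinks, from 21.3, 19.7 and 22.6 to 3.60, 4.04 and 2.75 CPM (log2 fold change -2.61, SE 0.17, adjusted p = 0.000111). LAMA3, a laminin chain of epithelia, had -1.34, MMP15, a membrane metalloprotease, -1.33 and THBS2, thrombospondin 2, -0.98. In the other direction TGFBI, a matrix protein induced by TGF-beta, rose from 5108, 5334 and 6129.6 to 13370.0, 9040.0 and 9025 CPM (log2 fold change 0.92, SE 0.19, adjusted p = 0.0308), with NRF2 ΔC replicate 1 above the other libraries. MMP1, interstitial collagenase, had 1 read over the control libraries and 115 over the NRF2 ΔC libraries, a ratio of 110.2 (95% interval 19.4 to 4391) for counting error only. COL15A1 (-2.41 to -2.21) was no longer a DEG without control replicate 1 or 2 or NRF2 ΔC replicate 2 or 3. COL4A4 (-1.66 to -1.41) was no longer a DEG without control replicate 2 or NRF2 ΔC replicate 2 or 3. TGFBI (0.87 to 1.02) was no longer a DEG without control replicate 1 or 2 or NRF2 ΔC replicate 2. THBS2 (-1.04) was no longer a DEG without control replicate 2 or NRF2 ΔC replicate 2.

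Of 21 mesenchymal and contractile genes 3 (14.3%) fell, all parts of the contractile apparatus, beside 3.83% called of all genes tested. TAGLN, transgelin, fell from 81.0, 67.6 and 21.2 to 9.01, 7.02 and 4.86 CPM (log2 fold change -3.02, SE 0.47, adjusted p = 0.00812), with control replicate 3 far below the other controls but above every NRF2 ΔC library. MYL9, a myosin light chain, fell from 391, 296 and 262 to 156, 116 and 78.0 CPM (-1.44), and CNN1, calponin, from 1.27, 1.48 and 1.26 to 0.244, 0.534 and 0.27 CPM (-1.88). Among 21 tested epithelial junction and keratin genes 1 (4.76%) fell, a share near that of all genes tested. It was DSC3, a desmosomal cadherin (from 137, 112 and 95.9 to 60.6, 49.7 and 45.1 CPM, -1.15). The YAP and TGF-beta responsive genes gave 3 rises and 1 fall of 29 (13.8% called), with a median of 0.16. BMP2 rose from 5.30, 6.77 and 7.71 to 14.9, 21.2 and 16.7 CPM (log2 fold change 1.42, SE 0.19, adjusted p = 0.00458), TGFB1 (1.01, without overlap) and LTBP2, a latent TGF-beta binding protein of microfibrils, from 147, 99.2 and 109.6 to 198, 257 and 203 CPM (0.89), while ANKRD1 fell from 58.2, 64.9 and 89.2 to 23.5, 37.6 and 39.3 CPM (-1.08). Members of this list thus moved in both directions. TAGLN (-3.03) was no longer a DEG without NRF2 ΔC replicate 2. CNN1 (-1.92 to -1.71) was no longer a DEG without control replicate 1 or 2 or NRF2 ΔC replicate 3. MYL9 (-1.48 to -1.44) and TGFB1 (0.86 to 0.88) were no longer DEGs without control replicate 2 or NRF2 ΔC replicate 2. LTBP2 (0.76 to 0.85) was no longer a DEG without control replicate 2 or 3 or NRF2 ΔC replicate 2. ANKRD1 (-1.19 to -0.86) was no longer a DEG without control replicate 2 or 3 or NRF2 ΔC replicate 2 or 3.

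Of 34 tested interferon-stimulated genes 4 (11.8%) fell, beside 3.83% called of all genes tested. None rose, 31 were lower and the median was -0.38. OAS1 and OAS3, neighbours on chromosome 12 that make the activator of RNase L, fell from 2.54, 2.72 and 1.35 to 0.146, 0.343 and 0.315 CPM (log2 fold change -2.98, SE 0.42, adjusted p = 0.00492) and from 36.1, 48.5 and 30.7 to 18.3, 21.5 and 21.4 CPM (log2 fold change -0.91, SE 0.18, adjusted p = 0.0227). IFI44 had -1.61 and HERC5, the ISG15 ligase, -2.97 at 40 reads in control and 5 in NRF2 ΔC cells. PSMB9, an immunoproteasome subunit, was the 1 of 18 antigen presentation genes (5.56%) that fell (-1.02). In the complement list 3 of 15 (20.0%) fell. SERPING1, the C1 inhibitor, fell from 10.5, 4.96 and 7.85 to 0.779, 0.61 and 1.13 CPM (log2 fold change -3.21, SE 0.35, adjusted p = 0.00134), and CD55, decay-accelerating factor, an inhibitor on the cell surface, from 60.7, 53.4 and 65.8 to 38.9, 35.9 and 42.3 CPM (log2 fold change -0.62, SE 0.12, adjusted p = 0.0246). Of 24 cytokine and chemokine genes 2 rose and 3 fell (20.8% called). The neighbours IL1B and IL1A on chromosome 2 rose from 1.14, 0.954 and 1.17 to 3.26, 3.74 and 5.45 CPM (log2 fold change 1.93, SE 0.27, adjusted p = 0.00467) and from 0.438, 0.143 and 0.224 to 0.682, 1.30 and 1.53 CPM. The chemokine CXCL12 had 36 reads in control and 0 in NRF2 ΔC cells, at least 12.5-fold lower, ICAM1, an adhesion molecule for leukocytes, 62 and 1, and IL6R, the interleukin 6 receptor, fell from 9.33, 9.83 and 8.75 to 3.36, 4.58 and 5.09 CPM (-1.09). HERC5 (-2.74) was no longer a DEG without NRF2 ΔC replicate 3. IFI44 (-1.52 to -1.34) and OAS3 (-0.95 to -0.71) were no longer DEGs without control replicate 2 or NRF2 ΔC replicate 2 or 3. PSMB9 (-1.11 to -0.91) was no longer a DEG without control replicate 1 or 2 or NRF2 ΔC replicate 2 or 3, nor in 1 fit of all 18 samples. IL6R (-1.13 to -1.05) was no longer a DEG without control replicate 2 or NRF2 ΔC replicate 2. CD55 (-0.70 to -0.54) was no longer a DEG without control replicate 1, 2 or 3 or NRF2 ΔC replicate 2 or 3, nor without replicate 1 of both lines. CXCL12 was no longer a DEG without control replicate 2, and IL1A was a DEG neither without any 1 of replicates 2 and 3 of both lines nor in 1 fit of all 18 samples.

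Adhesion and signalling genes of neurites had 3 rises and 3 falls of 26 (23.1% called, beside 3.83% of all genes tested). PLXND1, a semaphorin receptor, fell from 160.0, 137 and 127 to 29.8, 36.1 and 29.3 CPM (log2 fold change -2.15, SE 0.14, adjusted p = 0.000105), SEMA7A, a membrane-anchored semaphorin, from 6.22, 5.82 and 8.70 to 1.12, 1.37 and 1.04 CPM (-2.54) and SEMA3E, a ligand of PLXND1, from 26.8, 34.1 and 21.7 to 16.7, 7.70 and 9.95 CPM (-1.27). NRP1, a coreceptor of semaphorins and VEGF, rose from 8.76, 11.8 and 10.6 to 25.0, 20.3 and 25.5 CPM (log2 fold change 1.18, SE 0.16, adjusted p = 0.00411), as did SEMA3F (1.36) and CNTN1. Of 18 clustered protocadherins PCDHB15 (-2.60) and PCDHB11 (-2.52) fell (11.1% called), both members of a family of similar sequence. Growth factors and their receptors gave 2 rises and 3 falls of 38 (13.2% called). GAS6 is given above. IGFBP7 rose from 9.89, 6.58 and 7.36 to 31.7, 24.0 and 20.7 CPM (log2 fold change 1.68, SE 0.21, adjusted p = 0.00301) and IGFBP5 fell from 63.0, 12.7 and 3.36 to 1.27, 0.191 and 0.225 CPM (log2 fold change -5.62, SE 1.18, adjusted p = 0.0341), both binding proteins of insulin-like growth factors. IGFBP5 varied widely among the control libraries, yet the lowest control lay above the highest NRF2 ΔC library. FGF18 fell from 2.85, 3.15 and 3.14 to 0.536, 0.648 and 0.72 CPM (-2.25). WNT5B, the 1 of 23 WNT genes that was called (4.35%, near the share of all genes), fell from 2.54, 1.67 and 2.92 to 0, 0.114 and 0.09 CPM (log2 fold change -4.94, SE 0.53, adjusted p = 0.00132). Of 14 NOTCH pathway genes HEY1 rose (0.87) and its relative HEYL fell (-1.96), which is 14.3% called. The immediate early genes had 2 rises of 34 (5.88% called), the ERK feedback genes DUSP4 (0.70) and SPRY2 (0.69). SEMA3F (1.13 to 1.38) was no longer a DEG without control replicate 1 or 2 or NRF2 ΔC replicate 2 or 3, nor with upper-quartile normalization, with the stricter filter at 1 CPM, in 1 fit of all 18 samples. SEMA3E (-1.29 to -1.05), PCDHB11 (-2.68 to -2.15), DUSP4 (0.59 to 0.74) and SPRY2 (0.61 to 0.73) were no longer DEGs without control replicate 1 or 2 or NRF2 ΔC replicate 2 or 3. PCDHB15 (-2.53 to -2.28) and IGFBP5 (-5.94 to -5.16) were no longer DEGs without control replicate 2 or NRF2 ΔC replicate 2 or 3. HEY1 (0.79 to 0.94) was no longer a DEG without control replicate 1, 2 or 3 or NRF2 ΔC replicate 2 or 3.

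Among stress and metabolic lists other than the NRF2 targets, the share called was 8.11% for ATF4 targets and amino acid supply, 10.7% for heat shock proteins, 2.94% for cholesterol and fatty acid synthesis and 15.4% for ferroptosis genes, of which 3 are NRF2 targets, beside 3.83% of all genes tested. Of 37 tested ATF4 targets and amino acid genes 1 rose, the glycine carrier SLC6A9 (1.37), and 2 fell, SLC7A11 and SLC7A5, the carrier of large neutral amino acids (from 374, 397 and 339 to 200.4, 233 and 179 CPM, log2 fold change -0.86, SE 0.13, adjusted p = 0.00764). The list had a median of 0.04. Of 28 heat shock proteins the small ones HSPB3 (-1.58), HSPB2 (-0.88) and CRYAB (from 1576, 1261 and 1233 to 725, 617 and 400.1 CPM, -1.22) fell, of which the last 2 overlap on chromosome 11, while 20 of the 28 were higher and the median was 0.13. MYLIP, the ligase that degrades the LDL receptor, was the 1 of 34 cholesterol and fatty acid genes that fell (from 1.01, 1.15 and 1.52 to 0.0974, 0.0381 and 0.09 CPM, -3.97). On the ferroptosis list of 26, besides SLC7A11, FTL and FTH1, the oxidase NOX4 rose from 11.8, 13.5 and 15.1 to 18.9, 28.4 and 28.1 CPM (log2 fold change 0.90, SE 0.18, adjusted p = 0.029). SLC6A9 (1.19 to 1.53) was no longer a DEG without control replicate 1, 2 or 3 or NRF2 ΔC replicate 2 or 3. SLC7A5 (-0.80) was no longer a DEG without control replicate 2. HSPB3 (-1.52 to -1.34) was no longer a DEG without control replicate 2 or NRF2 ΔC replicate 2 or 3. CRYAB (-1.27) was no longer a DEG without control replicate 2 or NRF2 ΔC replicate 2. HSPB2 (-0.86) was no longer a DEG without NRF2 ΔC replicate 3. NOX4 (0.81 to 0.91) was no longer a DEG without control replicate 1 or 2 or NRF2 ΔC replicate 2 or 3.

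Cell cycle genes leaned one way without passing the test. All 47 mitosis genes had positive log2 fold changes, with a median of 0.37, and all 51 replication genes, with a median of 0.38, and edgeR called 0 of both, as did DESeq2 (3 and 1 had an unadjusted p under 0.05). The largest were CCNF (20.0, 27.5 and 35.0 CPM in control cells and 32.3, 45.2 and 49.7 CPM in NRF2 ΔC cells, log2 fold change 0.63, adjusted p = 0.243) and E2F2 (5.69, 9.16 and 12.9 CPM in control cells and 5.50, 18.0 and 20.1 CPM in NRF2 ΔC cells, 0.65, adjusted p = 0.61). The lines overlapped in all but 1 gene of each list, and replicate 1 was the lowest of its line in the summed level of both lists. Without replicate 1 of both lines the medians were 0.36 and 0.44, and edgeR called 1 and 7 genes, all higher. In the pair treated with NACET the medians were 0.28 and 0.20 with no DEG, and in the pair treated with H2O2 -1.15 and -0.03, with 33 mitosis genes lower. In a bulk sample fewer cells of a kind and less RNA per cell cannot be told apart, and genes of both lists are known to be expressed mainly in dividing cells.

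In the main fit edgeR found no DEG on 10 further lists. By DESeq2 and at an unadjusted p under 0.05 these gave 0 and 0 of 27 ER chaperones (largest change SDF2L1, 0.37), 0 and 0 of 9 metallothionein and zinc genes (MT1F, -0.43), 0 and 0 of 71 cytosolic ribosomal proteins (RPS15, 0.22), 0 and 1 of 76 respiratory chain subunits (NDUFA1, -0.34), 0 and 4 of 33 p53 targets (RRM2B, 0.41), 0 and 3 of 24 HOX and developmental factors (SOX8, -0.93), 1 and 3 of 15 imprinted genes (CDKN1C, -1.51) and 2 and 5 of 42 hypoxia and glycolysis genes. The largest change of the last list was ALDOC, an aldolase, 68.5, 76.2 and 46.6 CPM in control cells and 34.4, 11.3 and 14.7 CPM in NRF2 ΔC cells, which had no overlap and just missed the limit (-1.67, adjusted p = 0.0517). It was called in 8 of 14 alternatives. Without replicate 1 of both lines edgeR called 6 hypoxia and glycolysis genes, all lower. In the pair treated with NACET 5 were lower, and in the pair treated with H2O2 1. Without replicate 1 of both lines 1 imprinted gene was lower and 1 developmental factor higher. With NACET 1 imprinted gene and 1 developmental factor were lower. With H2O2 4 ER chaperones and 8 p53 targets were higher, and 2 developmental factors lower. Of the cancer-testis antigens only DDX43 was expressed enough to be tested (-0.24, 0 by DESeq2 and 0 at an unadjusted p under 0.05). The counts for the 3 tested markers of other tissues are given above, and the largest change was VWF (-1.16). VWF was called in 2 of 14 alternatives, without NRF2 ΔC replicate 1 and without replicate 1 of both lines.

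Whether these differences were also present under treatment was read in the other 12 samples, which share no library with the untreated comparison but are the same clone and the same control line. Between NRF2 ΔC and control cells both treated with NACET 646 of 13614 genes were DEGs (4.75%), of which 0.881% of all tested were higher and 3.86% lower. Between those treated with H2O2 762 of 13568 (5.62%) were DEGs, with 1.41% higher and 4.21% lower. Of the 428 genes that fell without treatment 405 were tested under NACET, all 405 had the same sign and 338 (79.0%) were DEGs in the same direction, and under H2O2 404 of 405 had the same sign and 313 (73.1%) were DEGs. Of the 97 that rose, 60 (61.9%) and 59 (60.8%) were DEGs in the same direction. In all 3 pairs 335 of the 525 (63.8%) were DEGs with the same sign, 288 that fell and 47 that rose. No gene with the opposite sign was called in either pair. The fall of NQO1 was -4.03 untreated and -5.79 with NACET and -5.66 with H2O2. For other targets the values under treatment were -2.14 with NACET and -1.69 with H2O2 for TXNRD1, -2.11 with NACET and -1.25 with H2O2 for FTL and -1.76 with NACET and -1.71 with H2O2 for MGST1, and among those not called without treatment -2.08 with NACET and -1.15 with H2O2 for HMOX1, -2.13 with NACET and -1.83 with H2O2 for GCLM and -0.99 with NACET and -0.81 with H2O2 for GSR. HMOX1 was not a DEG with H2O2. ABCG2 (-1.87 untreated, -1.04 with NACET and -1.06 with H2O2) and TXN (-0.67 with NACET and -0.34 with H2O2) were DEGs in neither treated pair. SOD3 was at -1.19 untreated, -0.94 with NACET and -0.64 with H2O2, and was not called with H2O2. TKT was at -1.47 untreated, -1.92 with NACET and -1.45 with H2O2. Whether a treatment changes the difference between the lines was not tested here. Among genes outside the NRF2 targets were PLXND1 (-2.18 with NACET and -2.11 with H2O2), CLDN11 (3.26 with NACET and 3.21 with H2O2) and TRO (3.60 with NACET and 3.54 with H2O2). CKB was at 1.83 with NACET and 5.02 with H2O2 and was not a DEG with NACET. Of the largest falls with 1 read over the untreated NRF2 ΔC libraries, CTSF was at -5.43 with NACET and -6.26 with H2O2. PTPLAD2 was at -6.36 with NACET and -5.74 with H2O2, and COCH at -5.58 with NACET and -6.47 with H2O2. CSRP1 was at -3.88 with NACET and -3.67 with H2O2, and MLPH at -3.65 with NACET and -4.17 with H2O2. TP53I11 was at -2.90 with NACET and -3.38 with H2O2, and was not called with NACET. CD55 (-0.24 with NACET and -0.21 with H2O2) and DUSP4 were DEGs without treatment and in neither treated pair, and SLC7A5 (-0.80 with NACET and -0.09 with H2O2) was not called with H2O2.

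Since the edited samples are 1 clone, the differences were also laid out along the genome, for 13538 genes with a position in hg19. The median log2 fold change of a chromosome ran from -0.04 on chromosome 14 to 0.07 on chromosome 19, and medians of 41 neighbouring genes stayed between -0.22 and 0.22. The share of genes that fell ran from 1.76% on chromosome 9 to 4.87% on chromosome 10. In 35 pairs of neighbouring tested genes both were DEGs in the same direction, 31 that fell and 4 that rose, and in 8 of them the 2 genes overlap and may share reads. Among the pairs without overlap were RGS11 and ARHGDIG (-4.36) with PDIA2 (-3.34) on chromosome 16, KPRP (-5.73) and IVL on chromosome 1, CASP1 (-2.40) and CASP4 (-0.84) on chromosome 11, OLFML1 (-4.60) and PPFIBP2 (-3.15) on chromosome 11 and ZNF594 with LOC100130950 (-7.33) 139 bases from it on chromosome 17.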

How the data were processed

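Poly(A) RNA of both ARPE-19 lines was sequenced from TruSeq v2 libraries as single-end reads. Per the study's methods and the submitters' processing notes, the authors aligned reads to hg19 with TopHat2 2.1.0 and counted them per gene with HTSeq 0.11.2 without regard to strand. The annotation is not given in the sources used here. The deposited values are raw read counts per gene symbol, one file per sample. Rows that name no gene were left out of library sizes: reads outside any gene were 16.0 to 17.5% of each library's total, multimapped reads 8.35 to 9.58% and ambiguous reads 0.955 to 1.07%. Per the study's methods, the authors took ribosomal RNA genes out of the counts ahead of their own analysis. Whether the deposited counts still hold them was not checked.

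Counts were filtered with filterByExpr, normalized by TMM and tested with edgeR 4.0.16 (quasi-likelihood, Benjamini-Hochberg over all genes tested) under R 4.3.3, on the 3 + 3 untreated samples. Genes with an adjusted p below 0.05 that differed by 0.6 or more on the log2 scale were called DEGs. The study used DESeq2 and gave these limits for another experiment. DESeq2 1.42.0 was an alternative, as were other normalizations, filters, fold limits and sample sets. Genes of chromosome Y and XIST were left out. On simulated counts of 13710 genes edgeR recovered 83 of 100 genes changed by a log2 fold of 1 and all 100 changed by 2, with 14 false calls. The changed genes had a mean of at least 1 CPM. Counts were drawn independently for each gene and library, with the spread per gene estimated from these data. Differences shared by many genes of a library were not simulated, so these numbers may not hold for the real libraries. A fold against a group at 0 is a bound with 3 reads over the group as the floor, and intervals (95%) cover counting error only. Symbols were placed with the hg19 annotation. Promoters and their coordinates are from RefSeq tables of GRCh38.p14. Named genes are the pathway regulators, the 8 RT-qPCR targets, the 15 largest rises and 15 largest falls with a mean of at least 1 CPM and no overlap, all DEGs of the NRF2 role lists, up to 5 in each direction of every other list, and the largest change of a list without DEGs. A few genes that the rule names are not reported here, though list counts include them. Genes outside this rule are named as such or as overlapping and neighbouring genes, or stand beside a list to show members that were not called. The gene lists and the comparison were chosen with earlier results of these data known.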

Additional observations from a re-analysis of the deposited data

How the results depend on the processing

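The 105 DEGs named by the rule kept their direction under each alternative that tested them (14, or 13 for 7 genes of low count), and 57 were called under each of these. Genes picked after their values were seen were not followed. DESeq2 gave 666 DEGs, scaling by RLE 514 and by the upper quartile 539, no filter 614, a filter of 1 CPM 466 and 1 fit of all 18 samples 703. With a fold limit of 1 (log2) 61 genes rose. Leaving out 1 replicate gave 260 to 898 DEGs in all, 38 to 200 higher, 218 to 698 lower and 40 to 139 on the gene lists, and 232 to 485 (NACET) and 228 to 453 (H2O2) untreated DEGs called again in the treated pairs. Without replicate 1 of both lines, chosen after seeing the data, there were 874 DEGs, 217 higher and 657 lower, and 146 on the lists. The cause of these changes was not tested.

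Replicate number was not used to pair the lines in the main fit. Deviations from the group means were correlated between same-numbered samples of the lines over 13710 genes. They gave 0.67 for replicate 1, -0.22 for replicate 2 and 0.65 for replicate 3. Control replicate 1 gave -0.72 with NRF2 ΔC replicate 3, and control replicate 3 gave -0.71 with NRF2 ΔC replicate 1. Replicates 1 and 3 thus shared part of their deviations between the lines, and the cause was not tested. With the replicate block edgeR called 839 genes, 177 higher and 662 lower, and 127 on the lists.

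Signs turned only in named genes that were not called and lay near 0, whose log2 fold changes without 1 replicate ran from -0.001007 to 0.032902 for NFE2L2, -0.098208 to 0.11835 for KEAP1, -0.12378 to 0.20368 for MAFF, -0.047609 to 0.14426 for MAFG, -0.063557 to 0.22365 for MAFK, -0.090458 to 0.083134 for BACH1, -0.094787 to 0.034378 for NFE2L1, -0.067026 to 0.15285 for CREBBP, -0.087 to 0.11146 for BTRC and -0.19324 to 0.057877 for TXN. With upper-quartile normalization KEAP1 was at -0.003992 and MAFF at -0.009435, with the replicate block at -0.003621 and -0.01548, and MAFF was at -0.001845 with the 1 CPM filter. BACH1 was at 0.001079 with DESeq2, 0.001092 with RLE factors and 0.002149 with no filter. BTRC was at -0.015394 without replicate 1 of both lines. Depth limits genes below 1 CPM, where few reads decide a value.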
